A study of Mus musculus with 33 samples.

Results

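The genes described here encode the nuclear subunits of the mitochondrial respiratory chain (complexes I to IV) and of ATP synthase (complex V). They were followed in induced osteoblasts (iOB), calvarial-derived osteoblasts (calvarial-OB) and fibroblasts of the mouse, 9 RNA libraries in all, and in the authors' deposited tables for iOB and for iOB positive for the GFP reporter (iOB GFP+). They were chosen by symbol, with no measured value: Nduf followed by a, b, c, s or v and a number, Sdha to Sdhd, and every symbol beginning with Uqcr, with Cox4 to Cox8 or with Atp5, leaving out Ndufa4l2. This gave 80 of the 17982 genes in the count table. Of these, 78 were among the 13438 genes with enough counts to be tested, and Cox6a2 and Cox8b were not. By symbol, 35 genes belonged to complex I, 4 to complex II, 8 to complex III, 16 to complex IV and 17 to complex V. The label held with some exceptions. Atp5s and Atp5sl carry the name without being structural subunits of ATP synthase, Cox7a2l is a factor that joins complexes III and IV into supercomplexes, and Ndufa4 is now assigned to complex IV. Subunits with other names, such as Ndufab1, Cyc1 and Usmg5, fall outside the rule, and the subunits encoded by mitochondrial DNA were not analysed here.

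Complex I (NADH dehydrogenase) and complex II (succinate dehydrogenase) pass electrons to ubiquinone, complex III passes them to cytochrome c, and complex IV (cytochrome c oxidase) passes them to oxygen. Complexes I, III and IV pump protons, and ATP synthase uses the returning protons to turn its membrane rotor (Fo), which drives ATP formation in its catalytic head (F1). Several complex IV subunits exist as a widely expressed isoform and as an isoform restricted to tissues such as heart, skeletal muscle, lung or testis. Osteoblasts are known to use both glycolysis and respiration.

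The iOB were fibroblasts that had received lentivirus carrying transcription factor DNA. They kept the virus for 24 hours, were divided over new dishes on day 3 and had osteogenic medium from day 5 on. The labels give neither the factor nor the day of harvest for these libraries, and list no group with virus or medium alone. The calvarial-OB came from calvarial progenitors under osteoblast differentiation and their titles name a dataset of their own, so that what belongs to the dataset and what belongs to the cells cannot be told apart. The fibroblasts were grown from tail tips of Col2.3GFP mice, in which a fragment of the collagen type I promoter drives GFP in osteoblast-lineage cells, and were expanded for a pair of passages; iOB started from such cells. Strain, age and sex of the mice are not given in the sources used here. Each group had 3 libraries of poly-A RNA, and because the labels do not say that these came from separate animals or cultures, p-values measure only the spread between these libraries.

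The libraries held 5646299 to 15023771 counts. Values are CPM, counts relative to the library total after scaling, and a gene was called at an adjusted p under 0.05 in edgeR's quasi-likelihood test over all tested genes. Of 12 osteoblast markers, 11 were higher and 1 lower than in fibroblasts in iOB, and 11 higher and 1 lower in calvarial-OB. The lower marker had a log2 fold change of -2.21 in iOB, and the lower marker in calvarial-OB -2.22. Of all tested genes, 22.7% were higher and 20.6% lower in iOB, and 28.4% and 27.4% in calvarial-OB, each against fibroblasts. Fibroblast markers were not lower throughout: of 10, 3 were higher and 6 lower in iOB and 4 were higher and 5 lower in calvarial-OB, with sums of 40200 to 45100 CPM in iOB and 53500 to 81400 CPM in calvarial-OB, against 48300 to 51500 CPM in fibroblasts (none at 0). A large part of these sums was Col1a1, which is also among the osteoblast markers. It gave 32150, 26840 and 27000 CPM in iOB and 61430, 56370 and 33130 CPM in calvarial-OB. In fibroblasts it gave 18860, 18450 and 17400 CPM. The respiratory genes together took 0.600% ± 0.0043 of all counts in iOB, 0.748% ± 0.065 in calvarial-OB and 0.575% ± 0.018 in fibroblasts (mean ± SD, n = 3 each). Summed over the 80 genes, the level was 5711, 5588 and 5576 CPM in iOB and 7012, 7634 and 7908 CPM in calvarial-OB, against 5755, 6039 and 6585 CPM in fibroblasts. Every calvarial-OB library thus lay above the other 6 libraries, and the iOB libraries lay just below the lowest fibroblast library. The place of iOB rests on the scaling: as a share of all counts, unscaled, every iOB library (0.595% to 0.604%) lay above every fibroblast library (0.559% to 0.594%). For 51 of the 78 tested genes all 3 calvarial-OB libraries were above the other 6, compared with 17.1% of all tested genes. For 17 of the 78 all 3 iOB libraries were below the other 6, compared with 10.8% of all tested genes. In bulk RNA, fewer cells of a type and less RNA per cell cannot be told apart.

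**Figure D1:**
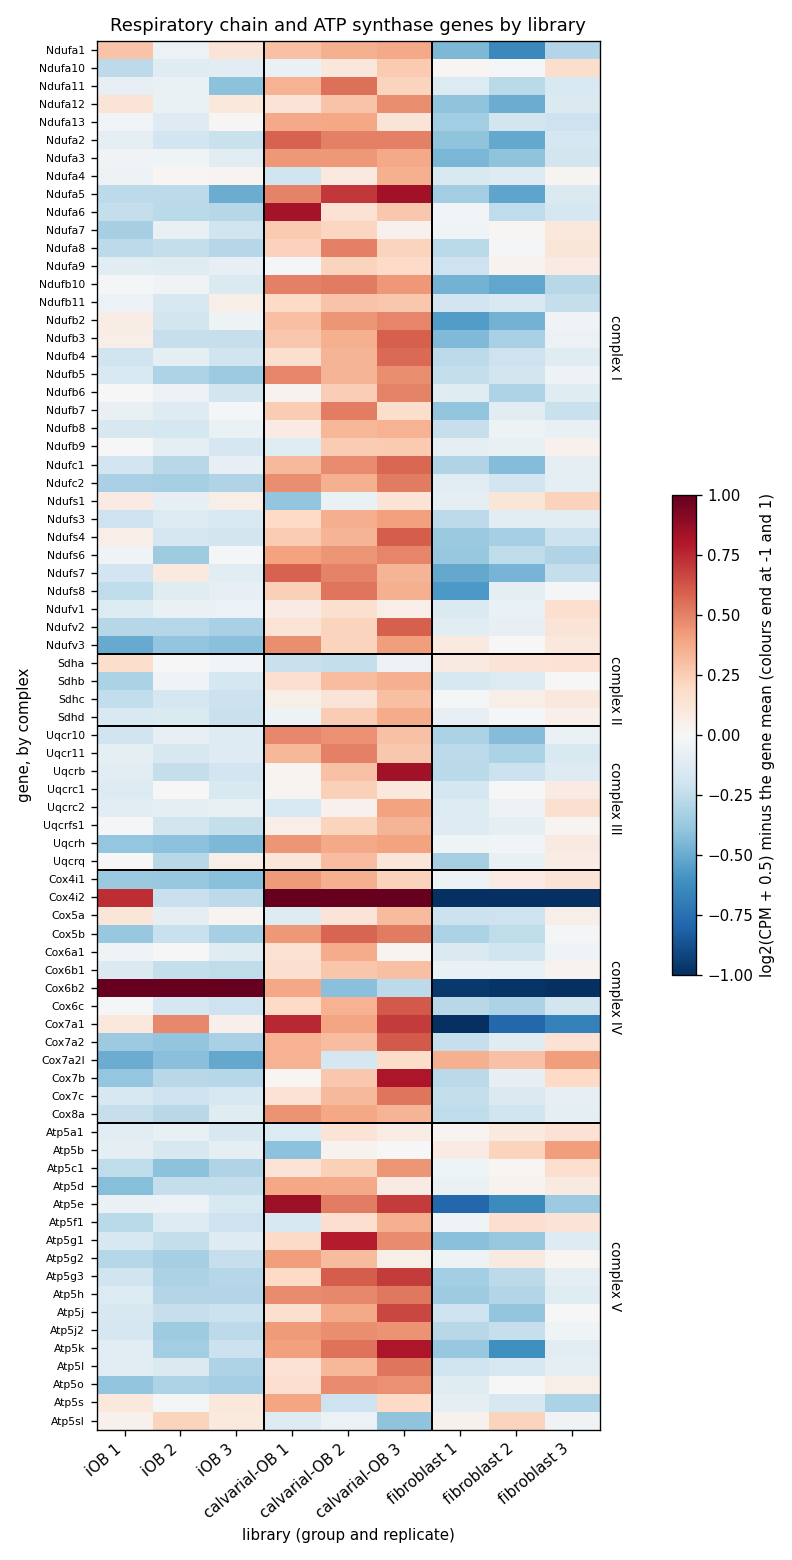
Rows are 77 of the 78 tested genes, grouped by complex, and each column is 1 library; colour is log2(CPM + 0.5) minus the mean of that gene over the 9 libraries, with colours ending at -1 and 1. The calvarial-OB columns are red for most genes, while the iOB and fibroblast columns are mostly pale or blue; Sdha, Cox7a2l and Atp5b are among the rows that break this pattern.

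The comparison of iOB with fibroblasts addressed how the induction protocol left the respiratory genes. Most of them were not called: 61 of 78 did not pass the test. In iOB 8 of the 78 rose, against a background of 22.7% of all tested genes, and 9 fell, against a background of 20.6%; in either direction the background was 43.3%. The share called was thus below the background in both directions. The median log2 fold change was -0.02, beside -0.04 over all tested genes, and 72 of the 78 lay within 0.5 of 0. Expression ranges were apart for 32 of the 78 genes, a smaller share than the 63% of all tested genes.

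Complex I had 4 genes higher and 1 lower of 35, all of them accessory subunits. Ndufa1, a small membrane-arm subunit, measured 42.4, 33.3 and 38.0 CPM in iOB against 25.3, 21.95 and 28.3 CPM in fibroblasts. The groups did not overlap, and the log2 fold change was 0.58 ± 0.13 (SE, adjusted p = 0.0033). Ndufb10 rose by 0.36 ± 0.10 and Ndufa12 by 0.40 ± 0.13. The remaining gene was Ndufa3 (0.28 ± 0.10), named after its value was seen. Ndufv3, an accessory subunit of the NADH-oxidizing arm, fell by 0.51 ± 0.10 (adjusted p = 0.0018). None of the 7 core subunits of complex I passed the test, and their log2 fold changes ran from -0.28 to 0.34. None of the 4 subunits of complex II passed either; Sdha, the flavoprotein that oxidizes succinate, measured 220.3, 196 and 191 CPM in iOB against 207, 213 and 216 CPM in fibroblasts.

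In complex III only Uqcrh, the hinge subunit that helps cytochrome c1 interact with cytochrome c, changed in iOB. It measured 71.1, 69.8 and 68.1 CPM in iOB against 90.0, 91.4 and 99.1 CPM in fibroblasts. Every iOB library lay below every fibroblast library, with a fall of 0.42 ± 0.09 on the log2 scale (adjusted p = 0.0024). In complex IV the restricted isoforms Cox4i2, Cox6b2 and Cox7a1 rose, as described further on, while Cox7a2l and Cox4i1 fell. Cox7a2l had the largest fall of the 78: it measured 73.4, 77.5 and 72.6 CPM in iOB against 132.5, 127 and 138 CPM in fibroblasts, a log2 fold change of -0.83 ± 0.13 (adjusted p = 0.00024). Cox4i1, the widely expressed form of subunit IV, measured 188, 187 and 182 CPM in iOB against 235, 258 and 268 CPM in fibroblasts (-0.45 ± 0.10, adjusted p = 0.0026).

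Complex V had 1 gene higher and 5 lower of 17. Atp5e, the epsilon subunit of the central stalk, measured 75.5, 76.0 and 71.2 CPM in iOB against 45.7, 50.7 and 61.4 CPM in fibroblasts. It rose by 0.50 ± 0.13 (adjusted p = 0.0082). Atp5c1, the gamma subunit of the same stalk, fell by 0.37 ± 0.11, the catalytic beta subunit Atp5b by 0.36 ± 0.13, and the peripheral-stalk subunit Atp5o by 0.33 ± 0.11. Atp5d (delta) and Atp5g2 (a source of the c-ring) fell by 0.32 ± 0.11 and 0.30 ± 0.11; these names were added after their values were seen. The 3 stalk subunits Atp5c1, Atp5d and Atp5e, which are thought to be present in equal number in the enzyme, were thus called in different directions.

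The smaller of these calls depended on single libraries. Ndufa3, Ndufa12, Ndufb10, Atp5b, Atp5c1, Atp5d, Atp5g2 and Atp5o each lost their call when some library was left out, among them each iOB and fibroblast library and calvarial-OB replicate 2, with adjusted p between 0.0501 and 0.197, both for Atp5b. The count of higher genes was 5 without iOB replicate 1 and 5 without fibroblast replicate 1; the count of lower genes was 5 without iOB replicate 1 or 3 and 4 without iOB replicate 2 or fibroblast replicate 2 or 3, and the median was 0.05 without fibroblast replicate 3 and 0.014 without any 1 of the calvarial-OB replicates. With library totals alone as the scaling, which shifted the median of all tested genes by 0.18, 18 genes were higher and 3 lower.

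Calvarial-OB against fibroblasts gave another pattern. In calvarial-OB 53 of the 78 genes rose, against a background of 28.4% of all tested genes, and 2 fell, against a background of 27.4% (55.8% in either direction). The median log2 fold change was 0.49, beside 0.02 over all tested genes, and 71 of the 78 fold changes were above 0. Ranges were apart for 58 of the 78, compared with 60.5% of all tested genes. By complex, 27 of 35 genes of complex I, 1 of 4 of complex II, 5 of 8 of complex III, 11 of 14 tested genes of complex IV and 9 of 17 of complex V were higher. The 2 that fell were Sdha and Atp5b.

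**Figure D2:**
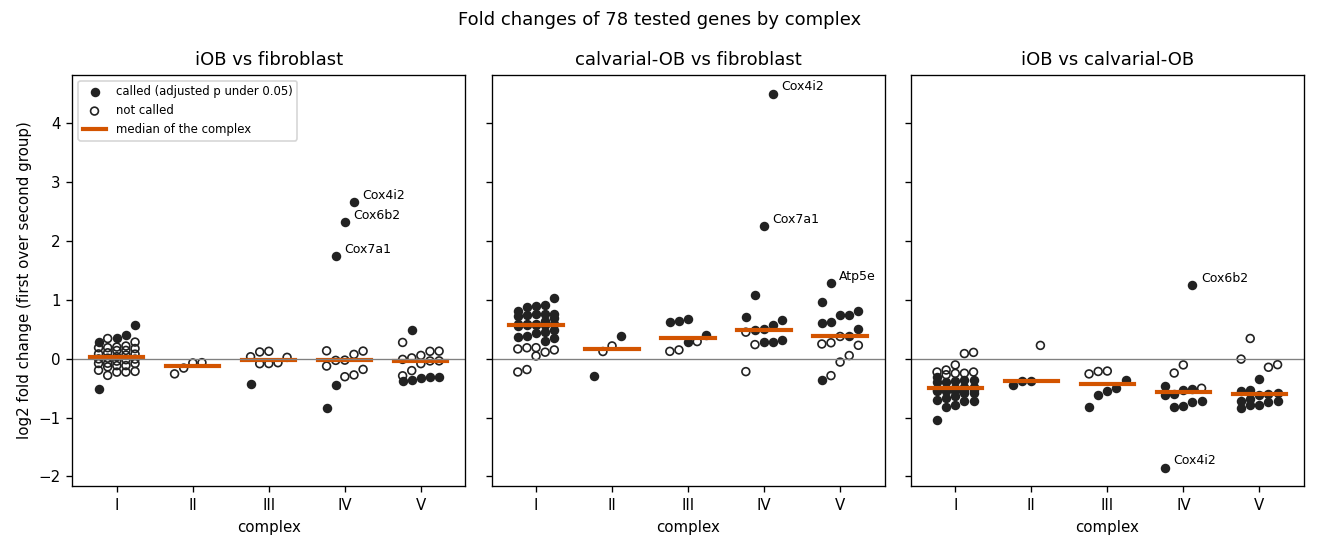
Log2 fold changes of the 78 tested genes by complex in the 3 comparisons; filled points were called (adjusted p under 0.05), open points were not, and orange lines are medians per complex. Points scatter around 0 for iOB vs fibroblast, lie mostly above 0 for calvarial-OB vs fibroblast (median 0.49) and mostly below 0 for iOB vs calvarial-OB (median -0.53).

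The share of genes called higher in calvarial-OB varied between complexes and subunit roles, but differences between these were not tested. Grouped by the role of the subunit, a grouping made after the values were seen, 23 of 28 accessory subunits of complex I rose, with a median of 0.58, and 4 of 7 core subunits rose, with a median of 0.36. Ndufa5, an accessory subunit, measured 37.8, 44.0 and 48.1 CPM in calvarial-OB against 20.8, 18.4 and 24.1 CPM in fibroblasts (1.03 ± 0.14, adjusted p = 6e-05). All calvarial-OB libraries of this gene lay above all fibroblast libraries. Ndufb10 rose by 0.91 ± 0.10 and Ndufa2 by 0.89 ± 0.11. The largest core subunit did not pass: Ndufs1 measured 51.8, 65.3 and 75.5 CPM in calvarial-OB against 64.4, 74.6 and 80.5 CPM in fibroblasts (-0.18 ± 0.14). This name was added after its values were seen.

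The 4 subunits of complex II were split. Sdhb, the iron-sulfur subunit, measured 64.7, 71.5 and 74.0 CPM in calvarial-OB against 51.4, 52.4 and 57.5 CPM in fibroblasts and rose by 0.38 ± 0.11 (adjusted p = 0.0094). Sdha measured 167, 165 and 187 CPM in calvarial-OB against 207, 213 and 216 CPM in fibroblasts and fell by 0.29 ± 0.10 (adjusted p = 0.023). Neither gene overlapped between the groups, although their products form the catalytic part of the same enzyme. The membrane anchors Sdhc and Sdhd had log2 fold changes of 0.12 ± 0.10 and 0.22 ± 0.11 and did not pass.

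In complex III the small subunits Uqcr10 (0.68 ± 0.11), Uqcrb (0.64 ± 0.17) and Uqcr11 (0.62 ± 0.10) rose, whereas the 2 large core proteins had log2 fold changes of 0.15 ± 0.11 for Uqcrc1 and 0.12 ± 0.14 for Uqcrc2 and did not pass. Uqcr10 measured 72.9, 71.6 and 64.1 CPM in calvarial-OB against 41.7, 38.5 and 49.6 CPM in fibroblasts. Among the 10 widely expressed subunits of complex IV, 8 rose. Cox5b, a subunit on the matrix side of the complex, measured 79.2, 87.7 and 83.9 CPM in calvarial-OB against 46.9, 49.0 and 57.8 CPM in fibroblasts (0.70 ± 0.11, adjusted p = 0.00015). Cox6c rose by 0.66 ± 0.12 and Cox8a by 0.57 ± 0.09. Cox8a is the widely expressed partner of a restricted isoform; of the other such partners, Cox7a2 rose by 0.49 ± 0.12, Cox6a1 by 0.32 ± 0.11, Cox4i1 by 0.28 ± 0.10 and Cox6b1 by 0.28 ± 0.09.

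In ATP synthase, subunits of the F1 head, the F1 stalk and Fo were called differently, and differences between these parts were not tested. Of the F1 head, Atp5b measured 426, 581 and 567 CPM in calvarial-OB against 599, 662 and 756 CPM in fibroblasts and fell by 0.36 ± 0.13 (adjusted p = 0.035), and Atp5a1, the alpha subunit, had a log2 fold change of -0.06 ± 0.10. The 3 small Fo membrane subunits Atp5j2, Atp5k and Atp5l rose. Atp5k, subunit e, which helps ATP synthase form dimers, measured 69.3, 76.1 and 91.6 CPM in calvarial-OB against 39.95, 33.9 and 48.2 CPM in fibroblasts (0.95 ± 0.15, adjusted p = 0.00016). Atp5g1, which encodes the c subunit of the rotor ring, rose by 0.81 ± 0.14. Atp5e had the largest rise among the widely expressed genes: it measured 144, 113 and 129 CPM in calvarial-OB, more than any fibroblast library, with a log2 fold change of 1.29 ± 0.13 (adjusted p = 5.1e-06).

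Of the 53 calls of higher genes, 46 held whichever library was left out. The 2 calls of lower genes did not: Atp5b lost its call without iOB replicate 3, calvarial-OB replicate 1 or fibroblast replicate 2 or 3 (adjusted p 0.0501 to 0.125), Sdha without calvarial-OB replicate 2 or fibroblast replicate 2 or 3 (0.0649 to 0.0704), so that no gene was called lower without fibroblast replicate 2 or without fibroblast replicate 3, nor with library totals or upper-quartile scaling. Cox4i1 lost its call without calvarial-OB replicate 1 or fibroblast replicate 1 or 2 (up to 0.101), Cox6a1 without calvarial-OB replicate 2 or fibroblast replicate 1 or 2 (up to 0.0870), and Cox6b1 without fibroblast replicate 1 or 2 (up to 0.0751).

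Many nuclear respiratory genes carry, in their promoters, sites for nuclear respiratory factor 1 (NRF1) and for the ETS factor GABP, also called NRF2. Promoter windows of 300 bases from RefSeq (GRCm38.p6, 250 bases before to 50 after the annotated start) were matched for 67 of the 80 genes. Shown are the windows of Atp5e and Atp5k, the ATP synthase genes with the largest rise in calvarial-OB; of Uqcrh, which was called in opposite directions in iOB and calvarial-OB; and of Cox6b2, the gene higher in iOB than in calvarial-OB. They lie on the minus strand at chr2:174464052-174464351 (Atp5e), chr5:108434350-108434649 (Atp5k), chr4:116075021-116075320 (Uqcrh) and chr7:4753045-4753344 (Cox6b2), and are written 5′ to 3′ along the gene. Capitals mark the core of the NRF1 site, GCGCA followed directly by its reverse complement TGCGC, and CCGGAAG, an ETS core, which appears as CTTCCGG on the other strand.
Atp5e: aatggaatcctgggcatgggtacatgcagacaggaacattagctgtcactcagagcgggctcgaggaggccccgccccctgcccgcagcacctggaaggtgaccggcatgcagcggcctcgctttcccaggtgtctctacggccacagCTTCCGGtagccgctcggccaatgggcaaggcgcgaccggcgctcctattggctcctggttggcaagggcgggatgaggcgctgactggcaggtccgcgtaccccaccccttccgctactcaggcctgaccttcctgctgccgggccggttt
Atp5k: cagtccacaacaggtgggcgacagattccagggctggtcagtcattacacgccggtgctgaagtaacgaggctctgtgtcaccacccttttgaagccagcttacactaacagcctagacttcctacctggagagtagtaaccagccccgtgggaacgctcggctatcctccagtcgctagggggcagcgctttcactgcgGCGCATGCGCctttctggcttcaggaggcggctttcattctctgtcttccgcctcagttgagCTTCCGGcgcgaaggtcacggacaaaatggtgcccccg
Uqcrh: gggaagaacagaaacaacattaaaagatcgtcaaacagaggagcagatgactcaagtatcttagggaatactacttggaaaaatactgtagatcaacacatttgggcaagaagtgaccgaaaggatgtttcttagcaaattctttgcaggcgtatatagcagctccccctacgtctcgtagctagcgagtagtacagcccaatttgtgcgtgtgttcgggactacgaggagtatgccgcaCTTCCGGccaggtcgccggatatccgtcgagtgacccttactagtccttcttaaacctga
Cox6b2: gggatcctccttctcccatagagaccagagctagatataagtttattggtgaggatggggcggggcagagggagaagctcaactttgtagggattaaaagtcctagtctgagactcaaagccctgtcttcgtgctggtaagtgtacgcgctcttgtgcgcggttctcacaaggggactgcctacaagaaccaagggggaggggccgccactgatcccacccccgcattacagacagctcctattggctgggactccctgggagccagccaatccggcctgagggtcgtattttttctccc
Searched on both strands, the NRF1 core was in a window of 5 of the 67 genes (7.46%; Atp5g2, Atp5k, Cox6a1, Ndufa11 and Uqcrc1), compared with 1.07% of all 27025 genes with a window. The ETS core was in a window of 16 of the 67 genes (23.9%), compared with 9.93% of all genes. Some genes have more than 1 window, and a gene was counted if any of its windows held the core. The 2 sets are unlike: all genes with a window include many without enough counts to be tested here, whereas nearly all respiratory genes were tested. The shares among tested genes alone were not counted. Atp5k held both, Atp5e and Uqcrh held the ETS core, and Cox6b2 held neither. A match describes the letters of the window, not binding, and no match says only that these letters were not found in it.

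iOB were also set directly against calvarial-OB. In iOB 1 of the 78 genes rose, against a background of 24.7%, and 57 fell, against a background of 24.1% (48.8% in either direction). The median log2 fold change was -0.53, beside -0.03 over all tested genes, and ranges were apart for 66 of the 78, compared with 55.5% of all tested genes. The genes lower in iOB numbered 26 of 35 in complex I, 3 of 4 in complex II, 5 of 8 in complex III, 10 of 14 tested in complex IV and 13 of 17 in complex V. The single higher gene was Cox6b2.

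Ndufa5 had the largest fall in complex I. It measured 22.2, 22.1 and 18.8 CPM in iOB against 37.8, 44.0 and 48.1 CPM in calvarial-OB (-1.04 ± 0.14, adjusted p = 0.0001). Ndufv3 (-0.82 ± 0.10) and Ndufc2 (-0.78 ± 0.10) followed. In complex II, Sdhb fell by 0.45 ± 0.11, Sdhc by 0.38 ± 0.10 and Sdhd by 0.38 ± 0.11. In complex III, Uqcrh fell by 0.83 ± 0.09, Uqcrb by 0.62 ± 0.17 and Uqcr10 by 0.55 ± 0.11. Cox5b measured 44.8, 50.0 and 46.3 CPM in iOB, below every calvarial-OB library, and fell by 0.83 ± 0.11 (adjusted p = 7.6e-05). Cox7a2 fell by 0.80 ± 0.12. In complex V, Atp5k measured 48.2, 40.7 and 44.8 CPM in iOB, again below every calvarial-OB library, and fell by 0.83 ± 0.15. The c-ring gene Atp5g3 fell by 0.79 ± 0.13 and Atp5e by 0.79 ± 0.13. Of the F1 head, neither Atp5b nor Atp5a1 was called, with log2 fold changes of -0.01 ± 0.13 and -0.15 ± 0.10. Sdha, with 220.3, 196 and 191 CPM in iOB against 167, 165 and 187 CPM in calvarial-OB, did not pass either (0.23 ± 0.10, adjusted p = 0.077). Of the 57 calls of lower genes, 47 held whichever library was left out, and without calvarial-OB replicate 3, 2 genes were higher in iOB. Sdhd lost its call without iOB replicate 3 or calvarial-OB replicate 3 (adjusted p up to 0.0660).

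Both osteoblast groups were compared with the same 3 fibroblast libraries, so the fold changes of each gene are given side by side. Called in both comparisons were 13 of the 78 tested genes. Lower in iOB and higher in calvarial-OB were 4 of the 13: Cox4i1 (-0.45 and 0.28), Uqcrh (-0.42 and 0.40), Ndufv3 (-0.51 and 0.31) and Atp5o (-0.33 and 0.39). The share of all tested genes called in both comparisons, or in opposite directions, was not counted. Whether 13 and 4 are many or few is therefore not known. Ndufv3 measured 36.5, 39.5 and 38.8 CPM in iOB and 71.8, 60.7 and 69.5 CPM in calvarial-OB, against 55.6, 51.8 and 55.8 CPM in fibroblasts. Uqcrh measured 126, 121 and 123 CPM in calvarial-OB. Atp5o measured 86.2, 91.3 and 89.3 CPM in iOB and 128, 157 and 156 CPM in calvarial-OB, against 104, 114 and 118 CPM in fibroblasts. In each of these 3 genes the fibroblast libraries lay between the other groups without overlap. Cox4i1, with 327, 313 and 287 CPM in calvarial-OB, showed the same order. Against fibroblasts, the opposite calls held whichever library was left out only for Uqcrh. The rise in calvarial-OB was lost for Ndufv3 without fibroblast replicate 2 (adjusted p = 0.0918) and for Cox4i1 without calvarial-OB replicate 1 or fibroblast replicate 1 or 2 (up to 0.101). The fall of Atp5o in iOB was lost without any 1 of the iOB libraries or fibroblast replicates 2 and 3, and with library totals as the scaling Atp5o (-0.15) and Uqcrh (-0.24) did not pass in iOB. Higher in both were Cox4i2, Cox6b2, Cox7a1, Atp5e, Ndufa1, Ndufa3, Ndufa12 and Ndufb10, and lower in both was Atp5b (-0.36 and -0.36).

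**Figure D3:**
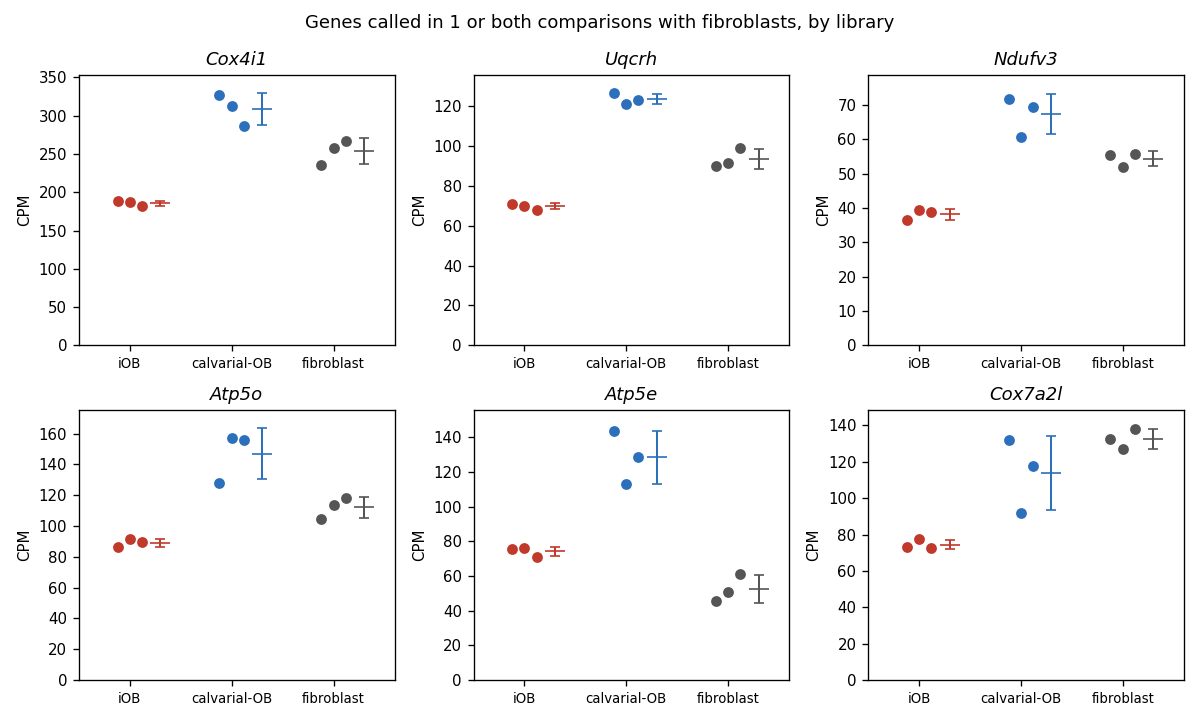
CPM of 6 genes in each library (points), with the mean and SD of the 3 libraries of a group beside them. For Cox4i1, Uqcrh, Ndufv3 and Atp5o the iOB points lie below and the calvarial-OB points above the fibroblast points; for Atp5e both osteoblast groups lie above fibroblasts; for Cox7a2l the iOB points lie below both other groups.

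Of the 5 restricted isoforms of complex IV subunits 3 could be tested, and in iOB against fibroblasts they had the 3 largest rises of the 78 genes. In fibroblasts Cox4i2 and Cox7a1 reached at most 0.942 and 0.498 CPM. They had enough counts to be tested only through the osteoblast libraries, where they were higher. Their rank among the rises is therefore in part set by that filter and is no added support. Cox4i2, an isoform of subunit IV known from lung and from hypoxic cells, measured 7.41, 3.56 and 3.44 CPM in iOB and 25.9, 13.4 and 12.7 CPM in calvarial-OB, against 0.942, 0.850 and 0.498 CPM in fibroblasts. The 3 groups did not overlap. Log2 fold changes against fibroblasts were 2.65 ± 0.49 in iOB (adjusted p = 0.00097) and 4.504 ± 0.44 in calvarial-OB (4.2e-06), and iOB were lower than calvarial-OB by 1.85 ± 0.35 on the log2 scale. These values rest on 101 counts in iOB and 518 in calvarial-OB against 22 in fibroblasts. In iOB replicate 1 and calvarial-OB replicate 1 the gene was at about the double of the other libraries of its group.

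Cox6b2, an isoform of subunit VIb known from testis, was the one gene of the 78 higher in iOB than in both other groups. It measured 12.3, 11.8 and 11.5 CPM in iOB and 7.02, 3.80 and 4.30 CPM in calvarial-OB, against 2.45, 2.41 and 2.24 CPM in fibroblasts. Every iOB library lay above every calvarial-OB library, and these above every fibroblast library. The rise over fibroblasts was 2.32 ± 0.25 in iOB (adjusted p = 1.5e-05) and 1.08 ± 0.26 in calvarial-OB (0.0035), and iOB exceeded calvarial-OB by 1.24 ± 0.23 (0.00081). Its widely expressed partner Cox6b1 was not called in iOB against fibroblasts (-0.18 ± 0.09).

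Cox7a1, the heart and skeletal muscle isoform of subunit VIIa, was low in all libraries, with 8, 15 and 7 counts in iOB and 18, 13 and 32 in calvarial-OB, against 3, 3 and 6 in fibroblasts. In CPM this was 1.21, 1.72 and 1.15 in iOB and 2.18, 1.59 and 2.08 in calvarial-OB, against 0.283, 0.425 and 0.498 in fibroblasts, with no overlap between fibroblasts and either osteoblast group. It rose by 1.75 ± 0.41 in iOB (adjusted p = 0.0048) and by 2.25 ± 0.38 in calvarial-OB (0.00032), and iOB and calvarial-OB did not differ by the test (-0.50 ± 0.32, adjusted p = 0.22).

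Cox8b and Cox6a2, the heart and skeletal muscle isoforms of subunits VIII and VIa, had too few counts for the test. Cox8b had 1, 3 and 0 counts in iOB and 17, 8 and 36 in calvarial-OB, against 0, 0 and 1 in fibroblasts. The ratio of calvarial-OB to fibroblasts was 57.1 (95% Clopper-Pearson interval 9.86 to 2290), that of iOB to fibroblasts 5.55 (0.549 to 273), and that of iOB to calvarial-OB 0.0972 (0.0257 to 0.262). These intervals cover counting error only, since reads without molecular identifiers are not independent molecules. Cox6a2 had 7 counts in iOB and 12 in calvarial-OB, against 10 in fibroblasts; the ratio to fibroblasts was 0.970 (0.314 to 2.82) in iOB and 1.12 (0.445 to 2.90) in calvarial-OB.

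The restricted isoforms were also set against their widely expressed partners within each library, as the log2 ratio of CPM + 0.5. Cox4i2 over Cox4i1 was higher than in fibroblasts by 2.45 in iOB and by 3.48 in calvarial-OB, Cox6b2 over Cox6b1 by 2.29 and 0.63, and Cox7a1 over Cox7a2 by 1.33 and 0.95. In each case the 3 libraries of the osteoblast group lay apart from the 3 fibroblast libraries, which gives p = 0.1, the smallest value an exact two-sided permutation test of 3 against 3 can give, so this design cannot pass 0.05. The Cox6a2 over Cox6a1 ratio differed by 0.02 and -0.04 (exact permutation p = 1 each). These differences depend on the added value: with 2 CPM in place of 0.5, Cox4i2 over Cox4i1 was higher by 1.70 in iOB and 2.46 in calvarial-OB, and Cox7a1 over Cox7a2 by 0.77 and 0.24.

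Ndufa4l2, which the rule leaves out, encodes a paralogue of Ndufa4 known to be induced in hypoxia. It measured 4.24, 3.78 and 3.11 CPM in iOB and 196.8, 127 and 88.0 CPM in calvarial-OB, against 33.4, 25.1 and 19.3 CPM in fibroblasts, a fall of 2.80 ± 0.34 in iOB (adjusted p = 4.6e-05) and a rise of 2.4 ± 0.27 in calvarial-OB (1.4e-05). The levels of the 3 groups did not overlap. Ndufa4 itself, with 75.0, 78.6 and 79.2 CPM in iOB and 67.4, 83.0 and 99.4 CPM in calvarial-OB against 69.6, 71.0 and 79.2 CPM in fibroblasts, overlapped between all 3 groups and was not called.

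**Figure D4:**
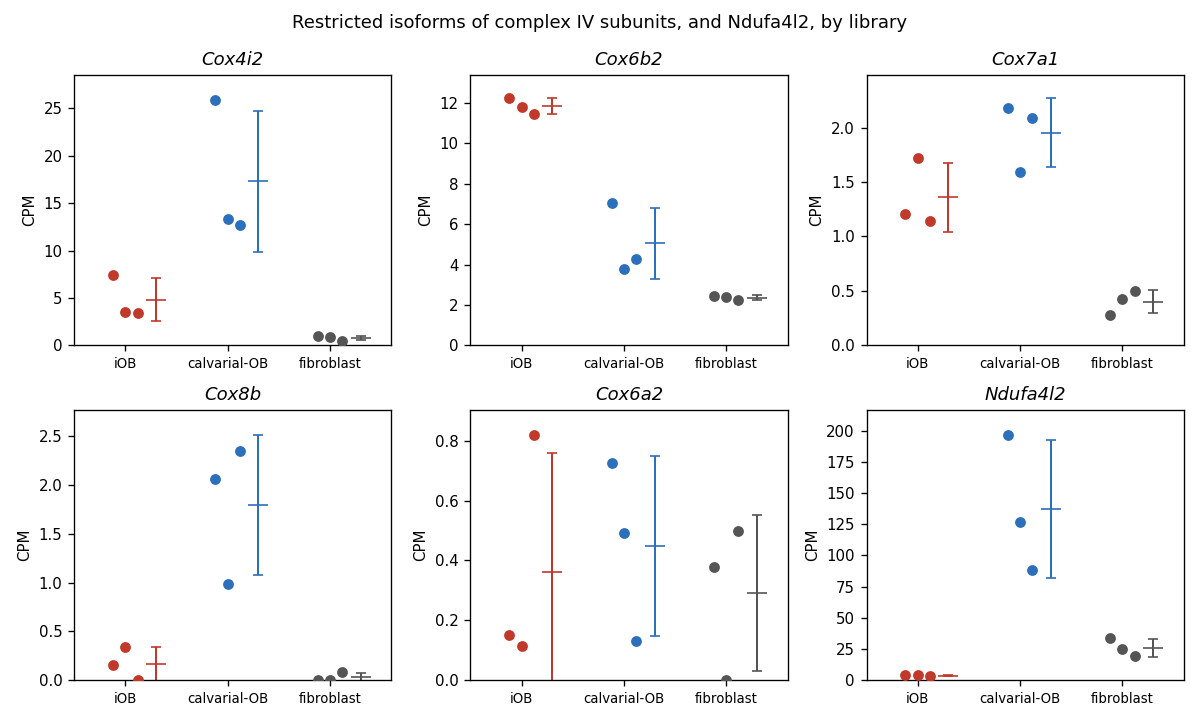
CPM of the 5 restricted isoforms of complex IV subunits and of Ndufa4l2 in each library (points), with the mean and SD of the 3 libraries of a group beside them; SD bars that would pass below 0 end at the axis. Cox6b2 is highest in iOB, Cox4i2, Cox8b and Ndufa4l2 are highest in calvarial-OB, and Cox6a2 overlaps between all groups.

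The authors' deposited tables give their own fold changes. For iOB, which rest on libraries of the same count table, the authors' deposited table listed 8 of the 80 genes as higher (background 19.9%) and 7 as lower (background 15%) at an adjusted p under 0.05. Atp5d and Atp5g2, called here, had adjusted p of 0.0667 and 0.0751 there. For iOB GFP+, whose single libraries were not used here, the authors' deposited table listed 13 of the 80 as higher (background 23.7%) and 22 as lower (background 21.7%). The median log2 fold change of the 80 genes in that table was -0.04, beside 0.03 over all its genes, and the range was -0.87 to 2.92. In complex I 7 genes were higher and 7 lower of 35, and in complex IV 2 were higher and 7 lower of 16. In complex V 3 were higher and 5 lower of 17, in complex III 1 was higher and 2 were lower of 8, and in complex II Sdhd was lower.

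Both deposited tables use fibroblasts as the denominator, and names in this paragraph were chosen after their values were seen. In the authors' deposited table for iOB GFP+, Cox4i2 was higher by 2.92 ± 0.41 (SE), Atp5e by 0.94 ± 0.12 and Ndufa1 by 0.87 ± 0.15, where the authors' deposited table for iOB gives 2.42 ± 0.43, 0.51 ± 0.15 and 0.60 ± 0.15. Lower in the authors' deposited table for iOB GFP+ were Ndufv3 (-0.87 ± 0.10), Cox7a2l (-0.68 ± 0.08), Cox7b (-0.64 ± 0.15), Atp5c1 (-0.60 ± 0.10), Uqcrb (-0.54 ± 0.09) and Uqcrh (-0.53 ± 0.09). Of these, Uqcrb, a small subunit of complex III, had 0.05 ± 0.18 in the authors' deposited table for iOB. Cox6b2 did not pass in GFP+ cells: the authors' deposited table for iOB GFP+ gives 1.049 ± 0.50 (adjusted p = 0.072), and that for iOB gives 2.27 ± 0.29 (2.5e-13). Cox7a1 did not pass there either (1.17 ± 0.65). Cox8b did, at 1.99 ± 0.83 (adjusted p = 0.037), but the fibroblast libraries of the count table held only 0, 0 and 1 counts of it. In the authors' deposited table for iOB, Cox7a1 had 1.51, where the fit here gave 1.75. Whether deposited fold changes were drawn toward 0 at low counts is not given in the sources used here. Whether iOB GFP+ and iOB differ was not tested, because values per library of iOB GFP+ were not used here.

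**Figure D5:**
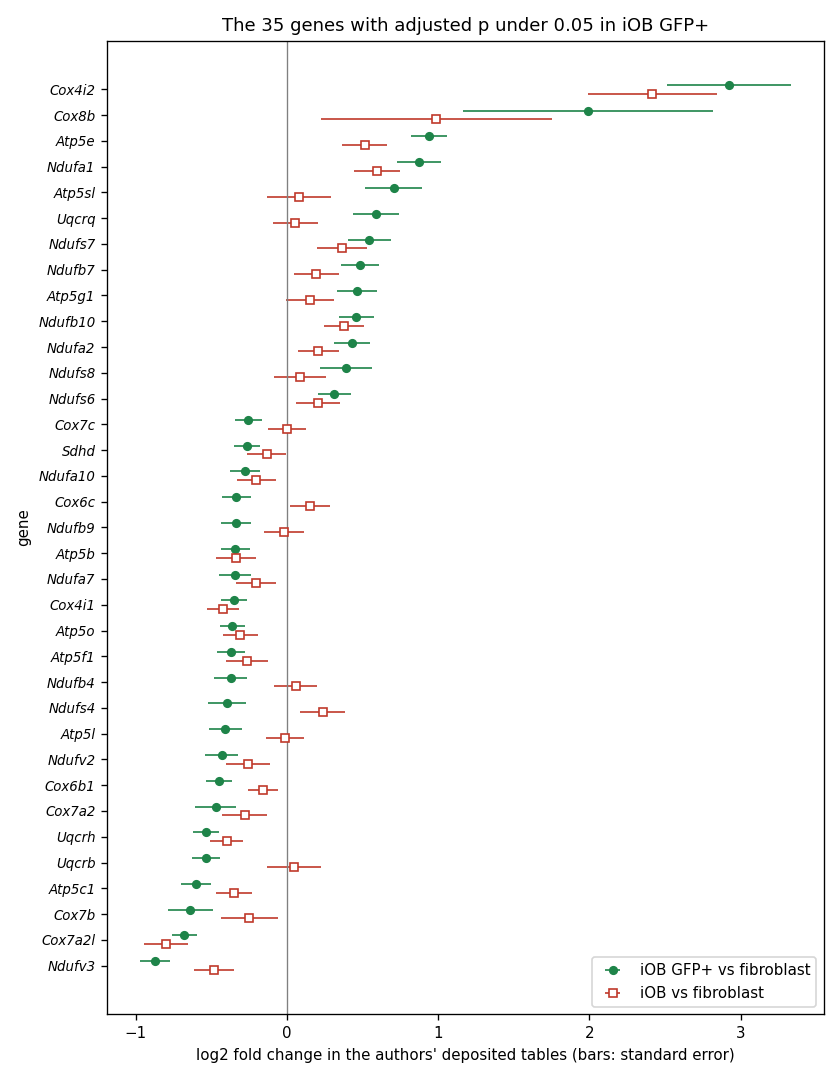
Log2 fold changes against fibroblasts, with standard errors, from the authors' deposited tables for the 35 genes with an adjusted p under 0.05 in iOB GFP+ (green circles), beside the values for iOB (open red squares). Both series use fibroblasts as the denominator; Cox4i2 is the most positive and Ndufv3 the most negative gene in iOB GFP+, at 2.92 and -0.87.

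Other genes of the pathway were counted in the same fit. Of all tested genes, 22.7% were higher and 20.6% lower in iOB than in fibroblasts. In calvarial-OB against fibroblasts these shares were 28.4% and 27.4%, and in iOB against calvarial-OB 24.7% and 24.1%. Of 42 assembly factors, 1 was higher and 4 were lower in iOB than in fibroblasts, 10 were higher and 3 lower in calvarial-OB than in fibroblasts, and 2 were higher and 8 lower in iOB than in calvarial-OB. Among them Uqcc2, needed for complex III assembly, measured 41.7, 53.0 and 49.9 CPM in calvarial-OB against 30.4, 34.7 and 32.9 CPM in fibroblasts (0.56 ± 0.12, adjusted p = 0.0014). Lrpprc, which stabilizes mitochondrial mRNAs, fell in iOB (-0.46 ± 0.14) and in calvarial-OB (-0.48 ± 0.14). Of 15 genes for mitochondrial DNA upkeep and expression, 0 were higher and 3 lower in iOB, and 2 were higher and 4 lower in calvarial-OB, each against fibroblasts. Cycs, cytochrome c, rose in calvarial-OB against fibroblasts by 0.99 ± 0.26 (adjusted p = 0.0067), with 52.0, 105 and 133 CPM against 45.3, 43.2 and 57.1 CPM, so that replicate 1 overlapped the fibroblasts. Usmg5, a small ATP synthase subunit outside the naming rule, rose by 0.86 ± 0.16 and Atpif1, the ATP synthase inhibitor, by 0.68 ± 0.12 in calvarial-OB; neither was called in iOB.

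Of 11 tested regulators of respiratory genes, 1 rose and 2 fell in iOB, and likewise in calvarial-OB, each against fibroblasts. That is 27.3% called in each comparison, beside 43.3% of all tested genes for iOB and 55.8% for calvarial-OB. Ppargc1b, a coactivator of mitochondrial genes, measured 2.57, 2.87 and 3.11 CPM in iOB and 3.03, 5.64 and 4.95 CPM in calvarial-OB, against 0.565, 0.708 and 0.415 CPM in fibroblasts (2.36 ± 0.38 and 3.04 ± 0.35). Gabpa, the DNA-binding subunit of GABP, fell in calvarial-OB by 0.91 ± 0.14 (adjusted p = 2e-04) and in iOB by 0.42 ± 0.14 (0.032). The call in iOB was lost without any 1 of the iOB or fibroblast libraries. Nrf1, Tfam and Esrra did not pass in either comparison, and Ppargc1a had 26 counts in iOB and 38 in calvarial-OB against 14 in fibroblasts, too few for the test.

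The tricarboxylic acid cycle list (21 tested) had 2 higher and 2 lower in iOB and 4 higher and 6 lower in calvarial-OB against fibroblasts; Cs, citrate synthase, had log2 fold changes of -0.35 ± 0.14 (adjusted p = 0.059) and -0.37 ± 0.14 (0.036). Fatty acid oxidation (16 tested) had 0 higher and 4 lower in iOB and 4 higher and 4 lower in calvarial-OB. Carriers and electron donors (20 tested) had 2 higher and 5 lower in iOB and 6 higher and 2 lower in calvarial-OB. In either direction, these 3 lists had 19.05%, 25% and 35% called in iOB, beside 43.3% of all tested genes. In calvarial-OB they had 47.6%, 50% and 40% called, beside 55.8% of all tested genes. The list of hypoxia-responsive genes of respiration (10 tested, Cox4i2 among them) had 1 higher and 7 lower in iOB and 3 higher and 4 lower in calvarial-OB. This gave 80% called in iOB and 70% in calvarial-OB. Pdk1, a kinase that inhibits pyruvate dehydrogenase, fell by 2.56 ± 0.21 in iOB and by 1.07 ± 0.19 in calvarial-OB.

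Markers of other cell types moved with the groups, and their part in the results on respiratory genes was not tested. Of all tested genes, 22.7% were higher and 20.6% lower in iOB than in fibroblasts. For calvarial-OB against fibroblasts the shares were 28.4% and 27.4%. Summed macrophage markers (17 of 18 in the table, none at 0) lay at 2440 to 3950 CPM in iOB and 3990 to 7370 CPM in calvarial-OB, against 44.6 to 90.6 CPM in fibroblasts. Adipocyte markers (15 of 15) lay at 438 to 543 CPM in iOB (Lep at 0) and 1510 to 2340 CPM in calvarial-OB, against 186 to 206 CPM in fibroblasts, where Adipoq, Cfd, Lep, Retn and Cidec were at 0. Of the 14 tested, 11 were higher and 2 lower in iOB, and 14 higher and 0 lower in calvarial-OB, each against fibroblasts. Brown adipocyte markers (7 of 8) lay at 51.2 to 54.2 CPM in iOB and 52.6 to 72.3 CPM in calvarial-OB (Ucp1 at 0), against 17.1 to 22.1 CPM in fibroblasts (Ucp1 and Cidea at 0). Dio2 alone gave 44.6, 42.9 and 39.3 CPM of the iOB sums, and of the 5 tested markers 1 was higher and 2 were lower in iOB than in fibroblasts, and 3 were higher and 0 lower in calvarial-OB than in fibroblasts. Striated muscle markers (18 of 20) lay at 45.9 to 76.7 CPM in iOB (Myh8 at 0) and 108 to 157 CPM in calvarial-OB, against 5.94 to 7.96 CPM in fibroblasts (Myh2, Myh4, Myh7, Tnni2 and Tnnc2 at 0). Actn3 alone gave 66.1, 30.9 and 38.1 CPM of the iOB sums, and of the 9 tested markers 3 were higher and 0 lower in iOB than in fibroblasts, and 7 were higher and 0 lower in calvarial-OB than in fibroblasts. Osteoclast markers (8 of 8, none at 0) lay at 254 to 295 CPM in iOB and 297 to 329 CPM in calvarial-OB, against 119 to 163 CPM in fibroblasts. Ctsk alone gave 222, 221 and 215 CPM of the iOB sums and 273, 294 and 261 CPM of the calvarial-OB sums. In fibroblasts Ctsk gave 110, 158 and 156 CPM. Of the 4 tested markers, 4 were higher and 0 lower in iOB, and 3 higher and 0 lower in calvarial-OB, each against fibroblasts. Proliferation genes (15 of 15, none at 0) lay at 236 to 295 CPM in iOB and 525 to 796 CPM in calvarial-OB, against 630 to 933 CPM in fibroblasts. Many small subunits of the respiratory chain have near-identical processed pseudogenes, and how the counting treated them is not given in the sources used here, so counts of single genes could be divided and are uncertain to that degree.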

How the data were processed

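RNA counts per gene symbol were deposited for 9 libraries, and the authors' deposited comparison tables for iOB and iOB GFP+ hold a base mean (a signal: counts over size factors, averaged), log2 fold changes and their standard errors, test scores, and p-values before and after adjustment, per the file headers. Per the submitters' processing notes, R 3.2.2 with DESeq2, the aligners STAR 2.4.2a and Bowtie2, and build mm9 were used; how reads were counted, and on which annotation and strand, is not given in the sources used here. The OB columns of the table were read as calvarial-OB. Methylation windows were not used here.

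All 3 groups entered 1 fit of edgeR 4.0.16 (R 4.3.3): low counts removed by filterByExpr, TMM scaling, quasi-likelihood test, Benjamini-Hochberg adjustment over all 13438 genes tested, with calls at an adjusted p under 0.05. The biological coefficient of variation was 14.8%. CPM used the same scaling; ± is the SE of a log2 fold change or the SD of 3 libraries. In the ratio of isoforms 0.5 CPM was added. Genes under the filter were given as counts with Clopper-Pearson intervals. The procedure was tested on simulated counts. Alternatives were other scalings, no filter, DESeq2 1.42.0, 2 groups only, a fold change minimum, a replicate block and each library left out.

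Named were, per complex and comparison, the 3 called genes with the largest fold change in each direction at or above the median CPM of tested genes (23.7), isoform pairs, the Sdh genes, untested genes, and likewise 3 per list of other pathway genes, with a few regulators. Not all genes so named in the other lists are given in the text, and 1 gene is not reported here. Atp5a1, Atp5d, Atp5g2, Atp5j2, Atp5l, Ndufa3, Ndufs1, Uqcrc1 and Uqcrc2 fall outside the rule and were named after their values were seen. The genes, lists and tests were chosen with earlier results of these data known; subunit roles were assigned after the values were seen.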

Additional observations from a re-analysis of the deposited data

Results flagged for a closer look

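In 4 genes iOB and calvarial-OB were called in opposite directions against the same fibroblasts. How many of all tested genes had such opposite calls was not counted. The difference between iOB and calvarial-OB, tested directly in edgeR's quasi-likelihood fit, was called as well. That call was a condition for choosing the 4 genes, so it and the separation of their libraries are no added support. The log2 difference of iOB minus calvarial-OB was -0.72 for Atp5o (adjusted p = 0.00019), a peripheral-stalk subunit of ATP synthase, and -0.73 for Cox4i1 (7.7e-05), a subunit of complex IV. It was -0.82 for Ndufv3 (5.5e-05), an accessory subunit of complex I, and -0.83 for Uqcrh (2e-05), the hinge subunit of complex III. The calls against fibroblasts were less stable: with each library left out in turn, only Uqcrh kept both of them in all 9 fits. Ndufv3 lost its rise in calvarial-OB without fibroblast replicate 2 (adjusted p = 0.0918), Cox4i1 lost its own in 3 of 9 fits, and Atp5o lost its fall in iOB in 5 of 9 fits. The difference of iOB and calvarial-OB was called in all 9 fits for each of the 4 genes. All 3 iOB libraries lay below all 3 calvarial-OB libraries in each of the 4 genes. The calvarial-OB libraries belong to a dataset of their own, and the part of that in these differences cannot be told apart from that of the cells.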

How the results depend on the processing

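Of iOB against fibroblasts, 8 genes were higher and 9 lower. With library totals as scaling these counts were 18 and 3, and the median of the genes was 0.16 in place of -0.02, beside a shift of 0.18 in the median of all tested genes. With a log2 fold change of at least 0.5 as a further condition the counts were 4 and 2. Leaving out 1 library gave 5 to 10 higher, 4 to 11 lower and a median of -0.071 to 0.053. Apart from library totals, the median was near 0. It was above 0 without fibroblast replicate 3 (0.053) or any calvarial-OB replicate (0.014). It was also above 0 with RLE size factors, with no filter, with 2 groups only and with DESeq2 (0.00056 to 0.019). The medians with library totals and without fibroblast replicate 3 counted as reversed. In both the sign changed and the shift exceeded the replicate SD of the median (0.070). Of calvarial-OB against fibroblasts, the 2 lower calls became 0 with upper-quartile scaling, 0 with library totals, 0 with the fold change minimum, 1 with only the groups compared, and 0 to 3 with 1 library left out. The median of 0.49 was 0.58 with upper-quartile scaling, 0.58 with library totals and 0.41 to 0.54 with 1 library left out. Of iOB against calvarial-OB, the count of higher genes was 3 with library totals and 1 to 2 with 1 library left out; the median of -0.53 was -0.60 with upper-quartile scaling, -0.43 with library totals and -0.53 to -0.42 with 1 library left out. In the authors' deposited table for iOB, 8 in place of 15 genes had an adjusted p under 0.01. The cause of these changes was not tested. Of 2537 values of single named results, 2343 kept their side of the threshold, 165 lost the call, 29 gained one and 0 reversed. A change of sign was counted as reversed only where the gene was called before or after the change of setting. With the replicate number as a replicate block, 7 genes were higher and 7 lower in iOB against fibroblasts, 53 and 2 in calvarial-OB against fibroblasts, and 1 and 56 in iOB against calvarial-OB. Same-numbered libraries had correlations of their deviations from -0.16 to 0.15. Libraries with different numbers were not correlated for reference, so these values cannot decide whether the numbers pair the libraries. Depth limits Cox8b, Cox6a2 and Cox7a1 most.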

Other observations

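Libraries of a group differed from each other in the respiratory genes as a whole. Fibroblast replicate 3 was the highest fibroblast library for 63 of the 78 tested genes, and calvarial-OB replicate 3 was the highest calvarial-OB library for 38. The same was not counted over all tested genes, so whether this is particular to the respiratory genes is not known. The median coefficient of variation of a gene within a group was 5% in iOB and 11.5% in calvarial-OB, against 7.61% in fibroblasts. The ribosomal RNA precursor Rn45s took 2.27%, 8.39% and 10.9% of counts in fibroblast replicates 1, 2 and 3; its part in these differences was not tested, and with ribosomal RNA rows left out of the scaling the median log2 fold change of the respiratory genes in iOB against fibroblasts was -0.02.

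The genes of cytosolic ribosomal proteins, another large group of small and abundant proteins, were set beside the respiratory genes. Like these, they were mostly lower in iOB than in calvarial-OB and more often higher than lower in calvarial-OB than in fibroblasts. Unlike the respiratory genes, most of them were lower in iOB than in fibroblasts. Of 80 tested, 0 were higher and 75 lower in iOB than in fibroblasts (median -0.86), 35 were higher and 4 lower in calvarial-OB than in fibroblasts (median 0.22), and 0 were higher and 75 lower in iOB than in calvarial-OB (median -1.08). This list was added after values were seen. Over all tested genes, 22.7% were higher and 20.6% lower in iOB than in fibroblasts. In calvarial-OB against fibroblasts 28.4% were higher and 27.4% lower, and in iOB against calvarial-OB 24.7% and 24.1%. Among genes of fuel use, Pdk4, a kinase that restrains pyruvate oxidation, rose in iOB by 1.73 ± 0.18 and fell in calvarial-OB by 0.48 ± 0.19 on the log2 scale, each against fibroblasts, and Cpt1a, which admits fatty acids to the mitochondrion, fell by 0.60 in iOB and by 1.70 in calvarial-OB. Bnip3, a mitophagy receptor induced in hypoxia, fell by 2.99 ± 0.34 in iOB and by 0.97 ± 0.31 in calvarial-OB.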
